A study of Mus musculus with 12 samples.

Results

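The 39 genes described here encode the enzymes of glycolysis and of glycogen synthesis and breakdown, together with the shuttle, phosphatase and kinase/phosphatase genes that act on the same intermediates. They were taken as a list of symbols, with older names resolved through the accession of each probe, out of 15234 genes measured on the arrays. All 39 were measured, each by its brightest probe, and 37 of them were well above background on all 12 arrays. Aldoc was above background on 11 arrays and Pgm2 on 9. The list was divided into 11 isoforms that predominate in skeletal muscle (Hk2, Pfkm, Aldoa, Pgam2, Eno3, Ldha, Fbp2, Pygm, Phka1, Phkg1, Ppp1r3a), 9 isoforms known mainly from other tissues or from most cells (Hk1, Pfkl, Pfkp, Aldoc, Pgam1, Eno1, Ldhb, Pygb, Pygl), and 19 single-form enzymes and regulators.

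RNA came from the whole gastrocnemius, a calf muscle of mainly fast fibres, of adult male mice of the CD1 strain. There were 4 groups of 3 muscles, each on its own single-colour Agilent array: wild-type (WT) mice gave innervated muscle, called control, and muscle left without its nerve for 14 days, and Smad4 knockout (KO) mice gave the same pair. Smad4 is the common partner of the Smad proteins that carry TGF-beta and BMP signals. The labels name no Cre driver, so which cells lack Smad4, and which part of the gene was deleted, is not given in the sources used here. Per the series' design text different animals served each of the 3 experiments. Signal is given as log2 of the scanner's background-corrected intensity minus the 75th percentile of the array, so a step of 1 is a 2-fold change. Smad4 itself averaged 3.79 ± 0.22 (SD, n = 3) on WT control and 3.32 ± 0.16 on WT denervated arrays, 2.33 ± 0.12 and 1.90 ± 0.14 on the matching KO arrays, and every KO array lay below every WT array. Between 50.2% and 56.4% of probes were well above background by array, no probe was saturated, and arrays of a group correlated at 0.974 to 0.985. The summed signal of 6 skeletal muscle markers lay between 9.91 and 10.9 on the log2 scale over all arrays. In KO muscle it was 10.78 to 10.9 on control and 9.91 to 10.35 on denervated arrays, without overlap. The WT groups overlapped, with medians of 10.60 (control) and 10.545 (denervated). The part of this sum in the changes described below was not tested. Of the 6 markers, creatine kinase Ckm fell in both genotypes (-1.35 ± 0.17 and -1.93 ± 0.17) and Acta1 in KO muscle (-0.83 ± 0.29).

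Glycolysis converts glucose to pyruvate in the cytosol, and fast muscle fibres rely on it for short, intense work. Glycogen is the fibre's own glucose store: phosphorylase, switched on by phosphorylase kinase, releases glucose phosphate from it, and glycogen synthase rebuilds it. Many steps have an isoform restricted largely to muscle and others found in most tissues, so the same reaction can be followed through more than 1 transcript.

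Denervation for 14 days lowered most of these transcripts in both genotypes. In WT muscle 26 of 39 genes fell at an adjusted p under 0.05 (limma, Benjamini-Hochberg over all genes), against 20.6% of all genes tested, and 0 rose, against 18.7% (29 of the 39 had an unadjusted p under 0.05, as did 47.8% of all genes; of the 29, Gbe1 lay above 0). Of the 26, 20 fell by at least 2-fold, a fall that 9.22% of all genes showed. In KO muscle 26 fell, against 23.2% of all genes, 21 of them by at least 2-fold, against 11.5%, and 2 rose (Hk1 and Pfkfb2), against 23.7%. The median change of the 39 was -1.01 in WT and -1.14 in KO muscle on the log2 scale, where the median over all genes was -0.02 and 0.00. The same 24 genes fell in both genotypes. Pfkfb4 and Pygb were called in WT muscle alone and Hk2 and Pfkl in KO muscle alone, which does not show that the genotypes differ for them: no interaction passed for any of the 39. The groups of arrays did not overlap for any gene that fell. This adds no support, as the same arrays gave the calls, and the share over all genes is not given here.

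**Figure D1:**
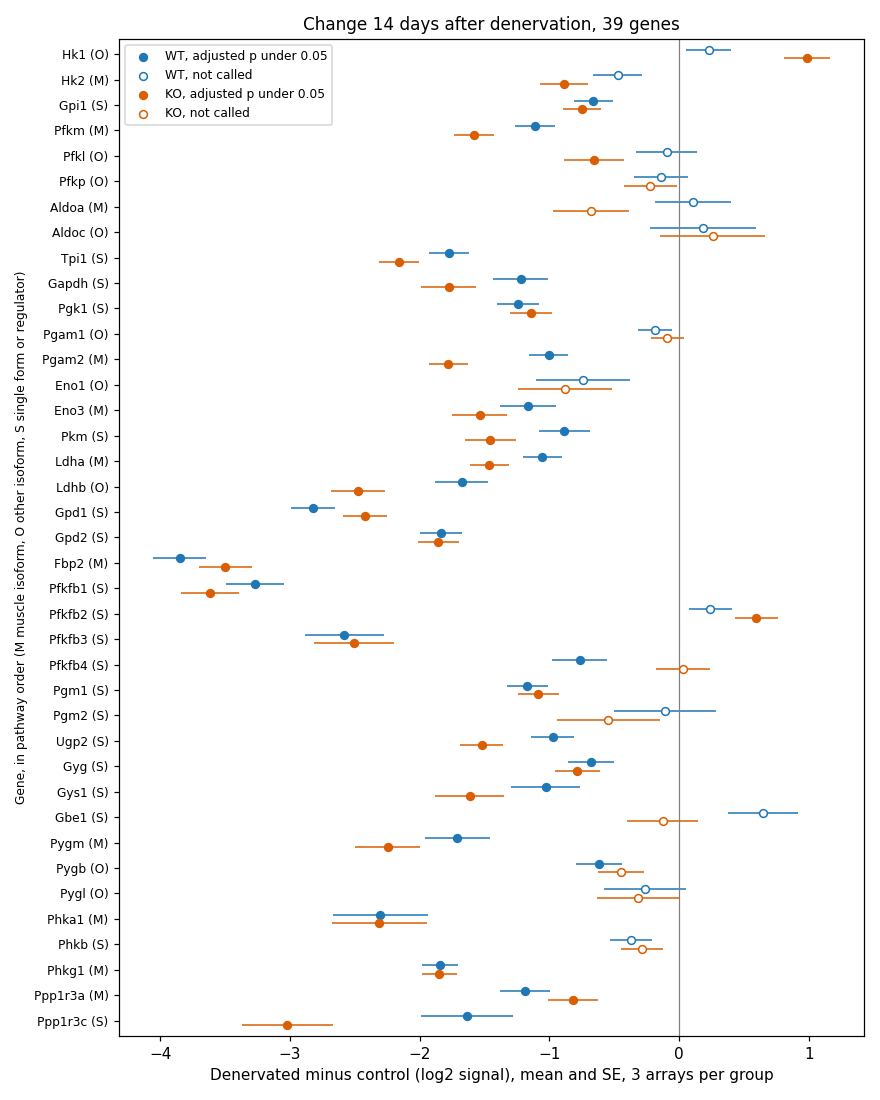
Change with denervation of each of the 39 genes in WT (blue) and KO (orange) muscle, denervated minus control on the log2 scale with SE (horizontal axis), genes in pathway order (vertical axis). Filled points have an adjusted p under 0.05; most points lie left of 0, with Fbp2 and Pfkfb1 below -3, while Hk1, Pfkfb2 and Aldoc in both genotypes, Gbe1 and Aldoa in WT and Pfkfb4 in KO muscle lie right of 0.

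At the steps from glucose to triose phosphates, the falls were uneven. Pfkm, the muscle form of phosphofructokinase, which commits sugar to glycolysis, read 8.12, 8.05 and 8.27 (control) and 7.0, 7.29 and 6.81 (denervated) in WT muscle, and 7.98, 8.26 and 8.18 (control) and 6.45, 6.72 and 6.52 (denervated) in KO muscle (replicates 1, 2 and 3). Every denervated array lay below every control array, and every KO denervated array below every WT denervated one. The change of Pfkm was -1.11 ± 0.16 (log2 and SE, adjusted p = 0.000265, limma) in WT and -1.58 ± 0.16 (adjusted p = 1.65e-05, limma) in KO muscle, and changes of other genes are given in the same order, WT and then KO. Gpi1, the isomerase between the phosphates of glucose and fructose, fell in both genotypes (-0.66 ± 0.15 in WT and -0.75 ± 0.15 in KO muscle); its fall in KO muscle was small, at -0.06, under quantile normalization and was not called there, and its fall in WT muscle was not called with slide as a block (-0.57, adjusted p = 0.0574, limma). Hk2, the insulin-responsive hexokinase of muscle, gave -0.47 ± 0.19 in WT muscle (adjusted p = 0.0659, limma) and fell by 0.89 ± 0.19 in KO muscle (adjusted p = 0.00272, limma). With normexp background correction the fall of Hk2 in KO muscle was not called (-0.94, adjusted p = 0.0684, limma). Aldoa, the muscle aldolase, gave 0.11 ± 0.29 in WT and -0.68 ± 0.29 in KO muscle, and neither passed (adjusted p = 0.8 and 0.0781, limma). Its second probe, of nearly the same brightness, gave -0.20 and -0.43.

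The steps below aldolase fell, apart from Pgam1 and Eno1. Tpi1, which interconverts the triose phosphates, fell 3.42-fold in WT and 4.48-fold in KO muscle. Gapdh, the dehydrogenase often used as a reference transcript, read 8.34, 8.85 and 8.91 (control) and 7.21, 7.65 and 7.58 (denervated) in WT muscle, and 9.10, 8.95 and 8.89 (control) and 7.53, 6.84 and 7.25 (denervated) in KO muscle. All 6 denervated arrays lay below all 6 control arrays for Gapdh, whose change was -1.22 ± 0.21 in WT and -1.77 ± 0.21 in KO muscle, called under every alternative tried. Pgk1, which makes the ATP of this stretch, fell in both genotypes (-1.24 ± 0.16 and -1.14 ± 0.16), while its second probe gave -1.33 and -1.18. Eno3, the muscle enolase, fell in both genotypes (-1.16 ± 0.21 and -1.54 ± 0.21).

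Pyruvate kinase, whose gene Pkm is listed on the array as Pkm2, fell in both genotypes (-0.88 ± 0.19 in WT and -1.45 ± 0.19 in KO muscle); a second bright probe gave -0.76 and -1.62, whereas another, dim probe gave 0.03 and 0.55. The array names do not tell which of its splice forms each probe reads. On the authors' matrix values the fall of Pkm in WT muscle was not called (-0.64, adjusted p = 0.0544, limma). Both lactate dehydrogenase genes fell: Ldha, the muscle subunit, (-1.05 ± 0.15 and -1.46 ± 0.15), and Ldhb, the subunit of heart and oxidative fibres. Ldhb changed by more than the brightest Ldha probe in both genotypes; a second Ldha probe, A_51_P364146, gave -1.91 and -2.23. Ldhb (probe A_51_P409173, chr6:142447540-142447599 on mm8) read 6.83, 6.75 and 7.20 (control) and 5.34, 5.39 and 5.03 (denervated) in WT muscle, and 6.72, 6.98 and 6.92 (control) and 4.83, 4.26 and 4.10 (denervated) in KO muscle. The 4 conditions fell into 3 separate bands, the controls together at the top and the KO denervated arrays at the bottom. The fall was 3.19-fold in WT (adjusted p = 0.000103, limma) and 5.56-fold in KO muscle (adjusted p = 5.52e-06, limma).

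The largest falls were in genes beside the main chain. Fbp2, the muscle fructose bisphosphatase, which runs the phosphofructokinase step backwards, was measured by probe A_51_P499020 (recorded span chr13:62859115-62863630 on mm8). It read 2.89, 2.69 and 2.57 (control) and -0.92, -0.95 and -1.54 (denervated) in WT muscle, and 2.92, 2.61 and 2.44 (control) and -0.60, -1.0 and -0.93 (denervated) in KO muscle. The control and denervated arrays stood more than 3 log2 units apart in both genotypes. The fall was 14.4-fold in WT (adjusted p = 3.23e-07, limma) and 11.3-fold in KO muscle (adjusted p = 5.16e-07, limma).

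The cytosolic glycerol phosphate dehydrogenase Gpd1, which hands electrons from glycolytic NADH to a shuttle into mitochondria, read 7.29, 7.20 and 7.46 (control) and 4.40, 4.71 and 4.37 (denervated) in WT muscle, and 7.14, 7.38 and 7.11 (control) and 4.53, 5.08 and 4.77 (denervated) in KO muscle. No denervated array came near a control array. Its fall was 7.07-fold in WT (adjusted p = 7.05e-07, limma) and 5.35-fold in KO muscle (adjusted p = 1.75e-06, limma), and a second, dimmer probe gave -4.15 and -3.56. Gpd2, the mitochondrial partner in that shuttle, changed by -1.84 ± 0.16 and -1.86 ± 0.16 on its brightest probe, but its other probe gave 0.61 ± 0.52 and -0.42 ± 0.52, and with the mean of both the fall in WT muscle was not called (-0.61, adjusted p = 0.133, limma).

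Fructose 2,6-bisphosphate, the strongest activator of phosphofructokinase, is made and removed by the 4 Pfkfb enzymes. Pfkfb1, whose isoforms include a muscle form, read 3.52, 3.71 and 3.62 (control) and 0.24, 0.88 and -0.09 (denervated) in WT muscle, and 3.35, 3.23 and 3.29 (control) and -0.33, -0.07 and -0.58 (denervated) in KO muscle. It fell 9.66-fold in WT (adjusted p = 1.64e-06, limma) and 12.3-fold in KO muscle (adjusted p = 7.52e-07, limma), with control and denervated arrays far apart. Pfkfb3, the inducible form, fell in both genotypes (-2.58 ± 0.31 and -2.51 ± 0.31), and its 2 other probes gave values from -3.83 to -2.84. Pfkfb4 fell by 0.77 ± 0.21 in WT muscle (adjusted p = 0.014, limma), a call that ended when either WT control replicate 3 or the first WT denervated array was left out (adjusted p = 0.0575 and 0.0509, limma), and read 0.03 ± 0.21 in KO muscle (adjusted p = 0.913, limma). Pfkfb2 gave 0.24 ± 0.16 in WT muscle and rose by 0.60 ± 0.16 in KO muscle (adjusted p = 0.0115, limma); the mean of its 3 probes turned that to -0.15 (adjusted p = 0.743, limma).

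**Figure D2:**
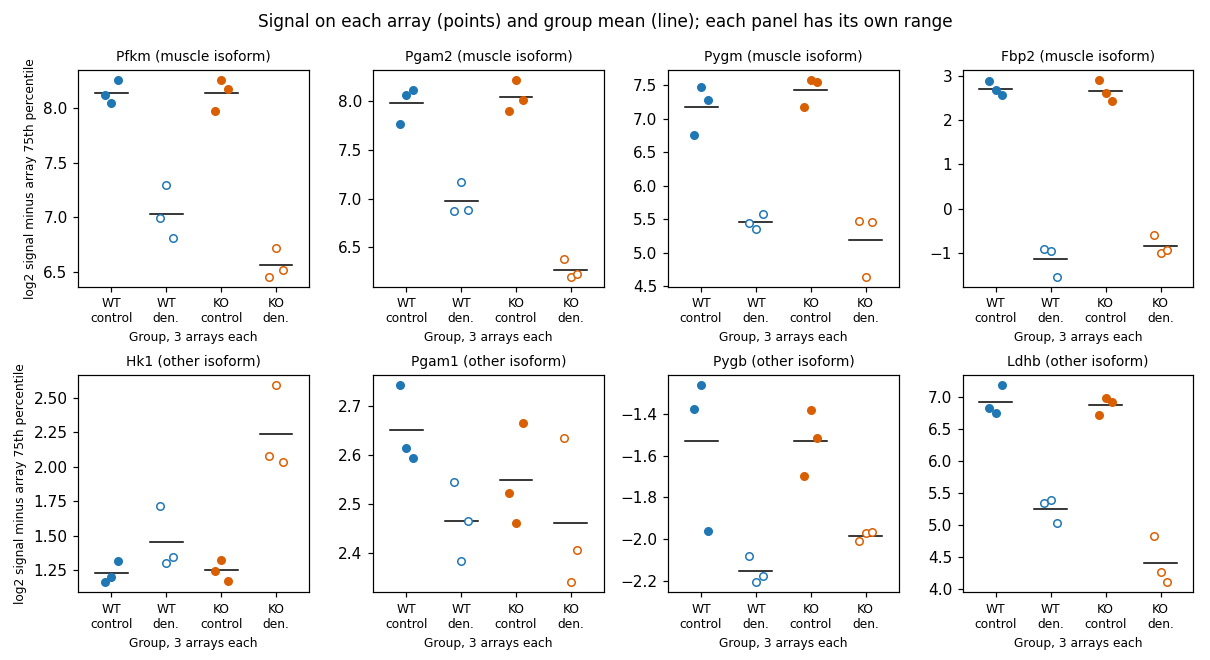
Signal of 4 muscle isoforms (Pfkm, Pgam2, Pygm, Fbp2) and 4 other isoforms (Hk1, Pgam1, Pygb, Ldhb) on each of the 12 arrays, as log2 minus the array's 75th percentile (vertical axes, each with its own range) by group (horizontal axes, den. for denervated), with a line at the group mean. In the upper panels all denervated arrays lie below all control arrays; in the lower panels Ldhb and, by a narrow margin, Pygb do the same, Hk1 is highest in KO denervated muscle and Pgam1 spans 2.34 to 2.74 over all groups.

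Glycogen genes fell on both sides of the store. Of 14, 10 fell in WT and 9 in KO muscle, or 71.4% and 64.3% against 20.6% and 23.2% of all genes; 12 and 10 had an unadjusted p under 0.05, where 47.8% and 54.6% of all genes did, and the median change was -1.0 and -0.95. On the side of synthesis, Pgm1, the main phosphoglucomutase (named Pgm2 on the array), fell in both genotypes (-1.17 ± 0.16 and -1.09 ± 0.16), Ugp2, which makes UDP-glucose, (-0.97 ± 0.16 and -1.52 ± 0.16), the primer protein gene Gyg (-0.68 ± 0.18 and -0.78 ± 0.18), and muscle glycogen synthase Gys1 (-1.03 ± 0.27 and -1.61 ± 0.27). Of these, Gys1 in WT muscle was not called with slide as a block (-0.66, adjusted p = 0.0750, limma). Gyg in WT muscle was not called with normexp background correction (adjusted p = 0.111, limma), and in KO muscle it was -0.26 on the authors' matrix values and not called (adjusted p = 0.0951, limma). The branching enzyme Gbe1 was the exception: it read 3.98, 4.52 and 4.49 (control) and 4.53, 5.44 and 4.97 (denervated) in WT muscle, and 4.59, 4.89 and 4.46 (control) and 4.09, 4.95 and 4.53 (denervated) in KO muscle. WT denervated arrays lay above WT controls by a narrow margin, and the KO groups overlapped. Its change of 0.65 ± 0.27 in WT muscle was not called (adjusted p = 0.081, limma). It was called with the replicate number as a block within genotype (adjusted p = 0.0254, limma), under quantile normalization, on the authors' matrix values and without the first WT denervated array. Pgm2, a second phosphoglucomutase (named Pgm1 on the array), lay near background and gave -0.11 ± 0.40 and -0.55 ± 0.40.

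On the side of breakdown, Pygm, muscle glycogen phosphorylase, read 6.75, 7.48 and 7.28 (control) and 5.45, 5.35 and 5.58 (denervated) in WT muscle, and 7.18, 7.59 and 7.55 (control) and 5.47, 4.64 and 5.46 (denervated) in KO muscle. It fell 3.27-fold in WT (adjusted p = 0.000344, limma) and 4.75-fold in KO muscle (adjusted p = 3.81e-05, limma), with more than 1 log2 unit between the lowest control and the highest denervated array. Of phosphorylase kinase, which activates it, the muscle regulatory subunit Phka1 fell in both genotypes (-2.30 ± 0.37 and -2.31 ± 0.37) and the muscle catalytic subunit Phkg1 (-1.84 ± 0.14 and -1.85 ± 0.14). Phkb, the beta subunit shared by tissues, gave -0.37 ± 0.16 and -0.29 ± 0.16, and neither was called (adjusted p = 0.0902 and 0.162, limma).

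The 2 targeting subunits that bring protein phosphatase 1 to glycogen also fell. Ppp1r3a, the muscle form, fell in both genotypes (-1.19 ± 0.19 in WT and -0.82 ± 0.19 in KO muscle). Its second, dimmer probe gave -1.42 and -1.59, so the order of the genotypes depended on the probe. With normexp background correction the fall in KO muscle was not called (-0.86, adjusted p = 0.0743, limma). Ppp1r3c read 4.16, 4.24 and 5.53 (control) and 2.96, 2.85 and 3.23 (denervated) in WT muscle, and 5.04, 5.45 and 4.44 (control) and 2.21, 2.00 and 1.66 (denervated) in KO muscle. Its controls were widely spread, yet no denervated array reached them. The fall was 3.1-fold in WT and 8.11-fold in KO muscle, the largest gap between genotypes among the 39, and the test of that gap did not pass (interaction -1.39 ± 0.50, adjusted p = 0.414, limma).

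Isoforms were next grouped by where they predominate. Of the 11 muscle isoforms 9 fell in WT and 10 in KO muscle, with median changes of -1.16 and -1.58; the exceptions were Aldoa in both and Hk2 in WT. Of the 9 other isoforms 2 fell in WT (Ldhb and Pygb), 2 fell in KO (Ldhb and Pfkl) and Hk1 rose in KO, with medians of -0.19 and -0.31. The share that fell among muscle isoforms was 81.8% and 90.9%, and among the others 22.2% and 22.2%; the background shares over all genes were 20.6% and 23.2%. Of the 19 single-form enzymes and regulators, 15 fell in WT and 14 in KO muscle.

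The contrast was tested within arrays on 9 pairs of isoforms of the same step. For each array the log2 signal of the other isoform was subtracted from that of the muscle isoform, and the change of this difference with denervation was tested by an exact permutation test, two-sided, exchanging arrays within genotype. There were 400 arrangements, which allow no p under 0.005, and p-values were adjusted over the 9 pairs. Levels of different probes cannot be set against each other, so only the change is read. By the exact permutation test the difference moved in 7 of 9 pairs, all at the smallest p it can give (0.005, adjusted p = 0.00643). That p requires that control and denervated arrays do not overlap in either genotype. Pfkm is in the pairs with both Pfkl and Pfkp, and Pygm in those with both Pygb and Pygl, so the pairs are not independent.

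Because same-numbered WT arrays deviated together, the test was also run with WT arrays exchanged only within a number, an alternative chosen after seeing the data; its 160 arrangements allow no p under 0.0125. By that exact permutation test the same 7 pairs passed, each at p = 0.0125 (adjusted p = 0.0161). Since their control and denervated arrays were fully separated in both genotypes, this p was fixed in advance and adds no support.

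In 6 of the 7 the muscle isoform lost ground. As the mean of both genotypes, Pygm changed by -1.69 against Pygl, the liver phosphorylase, and by -1.44 against Pygb, the brain phosphorylase. Hk2 changed by -1.29 against Hk1, the hexokinase of most tissues (-0.70 ± 0.24 in WT and -1.87 ± 0.14 in KO muscle). With the mean of the probes of Hk1 the value was -0.84 (exact permutation test, adjusted p = 0.0257). Pgam2, the muscle phosphoglycerate mutase, changed by -1.26 against Pgam1, the form of most tissues. Pfkm changed by -1.16 against Pfkp, the platelet form, and by -0.97 against Pfkl, the liver form. The 7th pair ran the other way on the brightest probes, where Ldha gained 0.82 on Ldhb, but not on the second Ldha probe. With that probe, a choice made after seeing the data, the change was -0.23 in WT and 0.25 in KO muscle, a mean of 0.00889 (exact permutation p = 0.94), so the direction in WT muscle turned and the call was lost. With the mean of its probes Ldha gained 0.41 (exact permutation test, adjusted p = 0.0075). The pairs that did not pass were Eno3 against Eno1 (-0.54, exact permutation p = 0.1, adjusted 0.112) and Aldoa against Aldoc (-0.51, exact permutation p = 0.245).

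**Figure D3:**
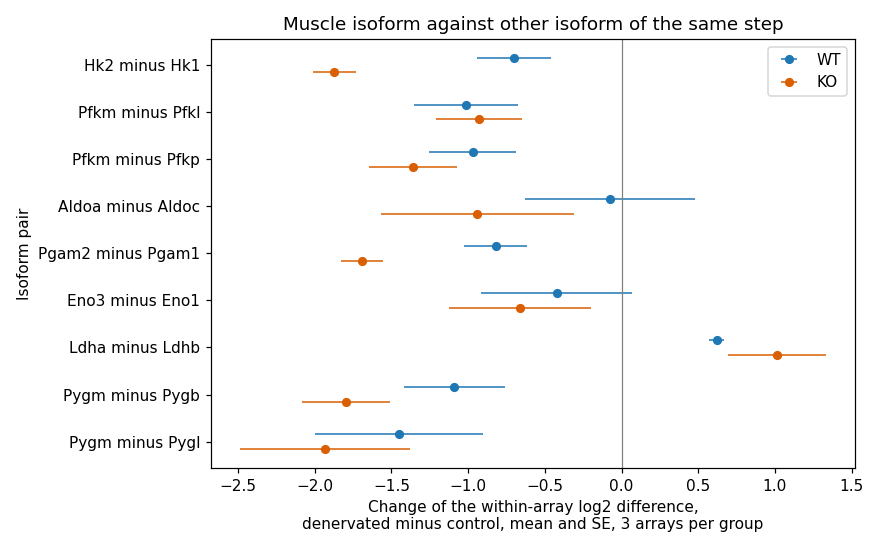
Change with denervation of the within-array log2 difference between the muscle isoform and another isoform of the same step (horizontal axis, mean and SE, 3 arrays per group) for 9 pairs (vertical axis), in WT (blue) and KO (orange). All pairs but Ldha against Ldhb, which lies right of 0 on the brightest Ldha probe plotted here (-0.23 in WT on the second), lie left of 0, from -0.08 for Aldoa against Aldoc in WT to -1.93 for Pygm against Pygl in KO.

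Most of the other isoforms, taken singly, did not pass. Pgam1 read 2.74, 2.61 and 2.59 (control) and 2.54, 2.38 and 2.46 (denervated) in WT muscle, and 2.52, 2.46 and 2.66 (control) and 2.63, 2.34 and 2.41 (denervated) in KO muscle, and its changes were -0.19 ± 0.13 and -0.09 ± 0.13 (adjusted p = 0.28 and 0.596, limma). The WT denervated arrays lay just below the WT controls, and the KO groups overlapped. Pygb fell by 0.62 ± 0.18 in WT muscle (adjusted p = 0.0169, limma), a call that ended when the first or second control array or the second denervated array was left out (adjusted p 0.0506 to 0.0699), when slide was taken as a block (adjusted p = 0.0760, limma) and with normexp background correction (-0.03, adjusted p = 0.959, limma). It gave -0.45 ± 0.18 in KO muscle (adjusted p = 0.0556, limma). Pfkl gave -0.10 ± 0.23 in WT and fell by 0.65 ± 0.23 in KO muscle (adjusted p = 0.0384, limma), a call that ended when replicate 2 or 3 of either KO group was left out (adjusted p 0.0682 to 0.14), or when slide was taken as a block (adjusted p = 0.104, limma). Eno1 gave -0.74 ± 0.36 and -0.88 ± 0.36, Pygl -0.26 ± 0.32 and -0.31 ± 0.32, Pfkp -0.14 ± 0.21 and -0.22 ± 0.21, and Aldoc 0.18 ± 0.41 and 0.26 ± 0.41, none of them called. A second Pfkp probe gave 0.56 and 0.37.

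RefSeq promoter windows (250 bases before to 50 after a transcript start, build GRCm38.p6) were held for 38 of the 39 genes, 57 windows in all, and 26 genes had 1 window. The windows of 2 muscle isoforms that fell, of the other isoform of each pair, and of Fbp2, the gene with the largest fall, are shown. These pairs are only some of those that carry the contrast above. Capitals mark E-boxes, the letters CANNTG, which bind muscle regulatory and other basic helix-loop-helix factors.
Pgam2, chr11:5803747-5804046, minus strand: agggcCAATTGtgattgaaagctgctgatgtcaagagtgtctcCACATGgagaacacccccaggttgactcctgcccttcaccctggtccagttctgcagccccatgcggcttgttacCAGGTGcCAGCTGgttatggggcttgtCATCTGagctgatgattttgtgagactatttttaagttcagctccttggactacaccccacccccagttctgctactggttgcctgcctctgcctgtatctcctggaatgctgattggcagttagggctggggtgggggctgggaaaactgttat
Pgam1, chr19:41911621-41911920, plus strand: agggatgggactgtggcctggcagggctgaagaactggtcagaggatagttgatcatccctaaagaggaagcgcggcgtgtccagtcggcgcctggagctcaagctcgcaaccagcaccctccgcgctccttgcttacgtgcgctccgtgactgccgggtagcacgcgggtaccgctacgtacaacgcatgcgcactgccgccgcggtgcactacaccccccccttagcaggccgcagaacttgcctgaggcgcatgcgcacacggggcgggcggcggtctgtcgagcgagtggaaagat
Pygm, chr19:6384158-6384457, plus strand: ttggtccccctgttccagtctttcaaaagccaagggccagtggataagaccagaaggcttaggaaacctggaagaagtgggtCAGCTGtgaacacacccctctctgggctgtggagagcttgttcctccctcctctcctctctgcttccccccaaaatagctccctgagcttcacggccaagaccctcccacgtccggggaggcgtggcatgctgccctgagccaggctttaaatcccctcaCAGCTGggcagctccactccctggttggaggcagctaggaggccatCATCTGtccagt
Pygb, chr2:150786546-150786845, plus strand: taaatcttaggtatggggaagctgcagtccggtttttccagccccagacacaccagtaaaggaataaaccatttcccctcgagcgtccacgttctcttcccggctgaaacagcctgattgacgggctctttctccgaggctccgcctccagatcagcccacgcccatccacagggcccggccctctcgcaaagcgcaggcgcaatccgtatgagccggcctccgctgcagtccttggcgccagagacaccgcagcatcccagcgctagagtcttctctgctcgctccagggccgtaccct
Fbp2, chr13:62858351-62858650, minus strand: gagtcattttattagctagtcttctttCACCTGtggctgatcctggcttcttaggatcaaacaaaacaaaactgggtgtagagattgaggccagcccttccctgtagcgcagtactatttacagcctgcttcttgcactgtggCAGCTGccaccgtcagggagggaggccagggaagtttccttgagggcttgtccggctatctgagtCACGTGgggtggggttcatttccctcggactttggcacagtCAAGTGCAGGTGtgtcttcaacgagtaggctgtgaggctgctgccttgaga
There were 5 E-boxes in the Pgam2 window, 3 in that of Pygm and 5 in that of Fbp2, and none in those of Pgam1 and Pygb. Not all pairs split this way. The Hk2 window held 0 E-boxes and those of Hk1 held 1 and 3. The Pfkm windows held 0 to 3, that of Pfkl held 3, and those of Pfkp and Pygl held 0. Over all genes of the list, 15 of 17 windows of muscle isoforms held CANNTG, 5 of 13 windows of other isoforms and 22 of 27 of the rest, where 72.3% of all 32851 windows held it. GGGCGG, the GC box (both strands), was in 5 of 17, 7 of 13 and 18 of 27 in the same order, against 35.7% of all windows. Of the genes with 1 window, 7 of 8 muscle isoforms, 1 of 6 other isoforms and 9 of 12 of the rest held an E-box. The letters ACGTG, the core of hypoxia response elements and part of some E-boxes (both strands), were in 26 of the 57 windows, or 45.6%, against 19.6% of all windows. The MEF2 consensus was in 3 of 57, or 5.26%, against 3.19%, and TCAGGTTTC, the MEF3 site, in none, against 0.429%. A match describes the letters only, and windows of 1 gene can overlap.

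No difference between genotypes passed while the muscle was innervated. Of KO against WT in control muscle, 0 of 39 genes passed in limma (5 had an unadjusted p under 0.05, where 4.04% of all genes did), against 0.00656% of all genes lower and 0% higher. The differences ran from -0.49 for Aldoc to 0.81 for Pfkfb3, with a median of 0.00. Pfkfb3 was among the few whose arrays did not overlap: 4.95, 4.67 and 5.10 in WT and 6.13, 5.89 and 5.15 in KO control muscle. Phkg1, Ppp1r3a, Gpd2, Pfkfb1 and Pfkfb2 were the other genes without overlap, all lower in KO (-0.43 to -0.33), and none passed. With 3 arrays against 3 the smallest exact permutation p is 0.1, and the share of all genes without overlap is not given here.

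In denervated muscle 1 gene passed in each direction, against 1.23% of all genes lower in KO and 0.958% higher; 14 of 39 had an unadjusted p under 0.05, as did 16.3% of all genes. These comparisons share their denervated arrays with the comparisons of denervation above. Pgam2 (probe A_51_P264495, recorded span chr11:5701822-5703040 on mm8) read 7.77, 8.07 and 8.11 (control) and 6.88, 7.17 and 6.88 (denervated) in WT muscle, and 7.90, 8.22 and 8.01 (control) and 6.38, 6.20 and 6.23 (denervated) in KO muscle. The KO denervated arrays lay below all others. With denervation it fell 2.01-fold in WT and 3.43-fold in KO muscle. Pgam2 was 1.63-fold lower in KO denervated muscle (-0.71 ± 0.15, adjusted p = 0.0359, limma).

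Hk1 (probe A_52_P102773, chr10:61664525-61664584 on mm8) read 1.16, 1.20 and 1.31 (control) and 1.72, 1.30 and 1.34 (denervated) in WT muscle, and 1.25, 1.32 and 1.17 (control) and 2.08, 2.59 and 2.03 (denervated) in KO muscle. The 3 KO denervated arrays were the highest. Hk1 was higher in KO denervated muscle by 0.78 ± 0.17 (adjusted p = 0.0445, limma), or 1.72-fold, and rose by 0.99 ± 0.17 with denervation of KO muscle (adjusted p = 0.00089, limma). Its 2 other probes, both dimmer, gave -0.06 and -0.20 with denervation of WT muscle and -0.20 and 0.18 with denervation of KO muscle, and the rise was not called on the mean of the 3 (0.32, adjusted p = 0.156, limma). Between genotypes in denervated muscle these probes gave -0.05 and 0.35, and the mean of the 3 was not called (0.36, adjusted p = 0.338, limma).

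Both calls between genotypes were close to the threshold. Hk1 lost its call when any 1 array other than WT denervated replicate 1 was left out (adjusted p 0.0554 to 0.146), and Pgam2 when any of the 6 denervated arrays, WT control replicate 2 or KO control replicate 3 was left out (adjusted p 0.0529 to 0.128). Ldhb (-0.85 ± 0.21, adjusted p = 0.0618), Pkm (-0.79 ± 0.19, adjusted p = 0.0669) and Hk2 (-0.70 ± 0.19, adjusted p = 0.0924) came next in limma's fit, all lower in KO and not called. Their denervated arrays did not overlap between genotypes, which adds no support. Those of Pygb did not overlap either (0.17 ± 0.18, adjusted p = 0.688, limma), and the share of all genes without overlap is not given here. Of the 39, 30 lay lower in KO denervated muscle, with a median of -0.17 against -0.01 over all genes. Over 21 alternatives that median ranged from -0.30 to -0.09. The median level of the 39 varied between arrays of a group with a pooled SD of 0.25. The 39 were read on the same arrays and are not independent, and the share of all genes below 0 is not given here.

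**Figure D4:**
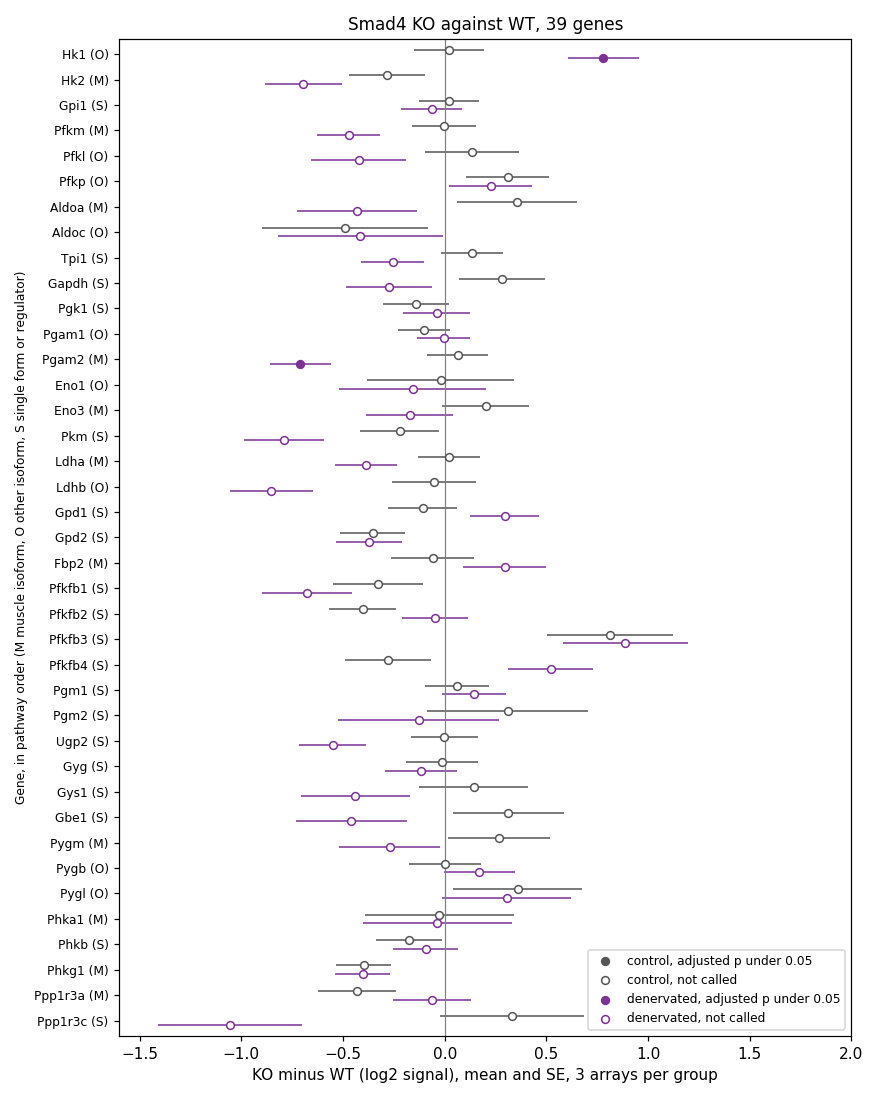
KO minus WT signal of each of the 39 genes in control (grey) and denervated (purple) muscle, on the log2 scale with SE (horizontal axis), genes in pathway order (vertical axis). Only Hk1 (0.78) and Pgam2 (-0.71) in denervated muscle are filled, for an adjusted p under 0.05. Of the 18 genes of the glycolytic steps, 16 lie left of 0 in denervated muscle and 8 in control muscle. The share of all genes left of 0 is not given here.

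The response to denervation was tested for a difference between genotypes through the interaction term. It passed for 0 of the 39 genes in limma (6 had an unadjusted p under 0.05), against 0.0853% of all genes lower and 0.0985% higher; 9.43% of all genes had an unadjusted p under 0.05. The change was more negative in KO muscle for 26 of 39 genes, with a median interaction of -0.11 on the log2 scale, against 0.01 over all genes. The share of all genes with a more negative change in KO muscle is not given here. Among the muscle isoforms the median was -0.41. It was -0.52 for the 10 fast-fibre markers and -0.46 for the 6 skeletal muscle markers, so a median of this size was not particular to these isoforms. No interaction passed in either marker list. The estimates were -0.77 ± 0.21 for Pgam2 (adjusted p = 0.226, limma), -0.80 ± 0.29 for Ldhb (adjusted p = 0.417, limma) and 0.76 ± 0.25 for Hk1 (adjusted p = 0.336, limma). Over 22 alternatives the median interaction of the 39 ranged from -0.31 to -0.03. It was -0.03 both under quantile normalization and on the authors' matrix values. Single muscle isoforms varied, from -0.57 to 0.11 for Eno3 and from -0.84 to -0.44 for Pgam2.

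Other genes of the same metabolism were followed through 5 lists. Pyruvate dehydrogenase and its control, which take pyruvate into mitochondrial oxidation, came first: 9 of 13 measured genes fell in WT and 10 in KO muscle, or 69.2% and 76.9% against 20.6% and 23.2% of all genes, and in KO muscle Pdk3 rose by 1.12 ± 0.30. The phosphatase Pdp1, which activates the complex, fell in both genotypes (-1.41 ± 0.14 and -1.76 ± 0.14), its regulatory partner Pdpr (-0.76 ± 0.13 and -1.06 ± 0.13), the subunit Pdha1 (-0.84 ± 0.14 and -1.34 ± 0.14), and the pyruvate carrier subunit Mpc2 (-1.09 ± 0.15 and -1.48 ± 0.15).

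Of 14 further genes of glycogen turnover, 5 fell and 2 rose in WT muscle, and 8 fell and 1 rose in KO muscle. The shares that fell were 35.7% and 57.1%, against 20.6% and 23.2% of all genes, and those that rose, 14.3% and 7.14%, lay below the 18.7% and 23.7% of all genes. Phka2, the liver counterpart of Phka1, rose in both genotypes (0.95 ± 0.14 and 0.88 ± 0.14), opposite to the fall of the muscle subunit. Ppp1r3d, another glycogen-targeting subunit, fell in both genotypes (-1.71 ± 0.26 and -1.88 ± 0.26), as did Pgm2l1, a glucose 1,6-bisphosphate synthase (-1.05 ± 0.21 and -0.69 ± 0.21).

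Of 15 other isoenzymes of glycolysis 9 were measured, and in WT muscle 3 fell and 3 rose, in KO muscle 3 and 2, few genes against background shares of 20.6% and 23.2% lower and 18.7% and 23.7% higher. Bpgm, which makes 2,3-bisphosphoglycerate, fell in both genotypes (-1.83 ± 0.17 and -1.70 ± 0.17), Ldhd, a D-lactate dehydrogenase, (-1.98 ± 0.21 and -3.14 ± 0.21), and Gapdhs, the sperm form of the dehydrogenase, likewise (-1.95 ± 0.50 and -2.26 ± 0.50), while Adpgk, an ADP-dependent glucokinase, rose in both genotypes (0.60 ± 0.14 and 0.51 ± 0.14). The sugar epimerase Galm rose by 1.08 ± 0.20 in WT muscle and gave 0.38 ± 0.20 in KO muscle. The pentose phosphate pathway, which draws on glucose 6-phosphate, had 1 gene that fell of 8 in each genotype, 2 that rose in WT and 1 in KO muscle, or 12.5% lower in each and 25.0% and 12.5% higher, near or below the shares of all genes. The gene that fell was the isomerase Rpia (-1.19 ± 0.18 and -0.77 ± 0.18). Pgd, its second dehydrogenase, rose in both genotypes (1.53 ± 0.13 and 0.90 ± 0.13). Pgls, the lactonase between the dehydrogenases, rose in WT muscle (0.56 ± 0.14) and gave 0.14 ± 0.14 in KO muscle.

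Of 15 regulators of glycolytic genes and flux, 6 fell and 3 rose in WT and 7 fell and 4 rose in KO muscle. The shares that fell, 40.0% and 46.7%, compare with 20.6% and 23.2% of all genes, and those that rose, 20% and 26.7%, lay near the 18.7% and 23.7% of all genes. Tigar, a phosphatase that removes fructose 2,6-bisphosphate, fell in both genotypes (-3.62 ± 0.17 and -3.63 ± 0.17), a size near those of Fbp2 and Pfkfb1. Prkaa2, the muscle catalytic subunit of AMP-activated kinase, fell in both genotypes (-2.00 ± 0.14 and -2.18 ± 0.14), the kinase gene Sik1 rose in both genotypes (3.40 ± 0.30 and 3.53 ± 0.30), Esrra, a nuclear receptor of oxidative metabolism, fell in both (-1.16 ± 0.15 and -1.62 ± 0.15), and Foxo1, a transcription factor of fasting and atrophy, rose in both genotypes (1.12 ± 0.14 and 1.40 ± 0.14).

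**Figure D5:**
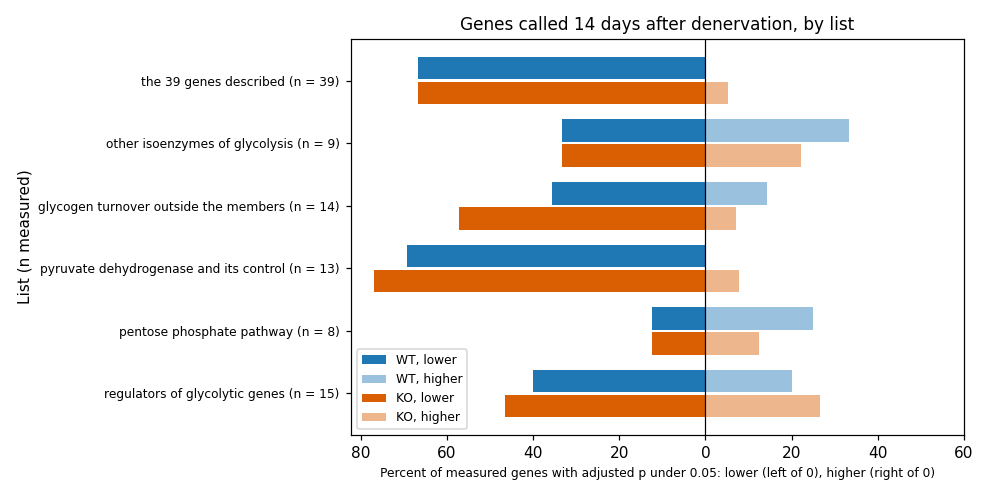
Percent of measured genes that fell (left of 0) or rose (right of 0) with denervation at an adjusted p under 0.05 (horizontal axis), for the 39 genes described and 5 further lists (vertical axis, number measured in brackets), in WT (blue, pale blue) and KO (orange, pale orange). Falls reach 66.7% of the 39 in both genotypes, with rises of 0% and 5.13%; of all genes 20.6% and 23.2% fell and 18.7% and 23.7% rose.

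Markers of fibre type and of other cells were followed too, and their part in these results was not tested; over all genes 20.6% fell in WT and 23.2% in KO muscle, and 18.7% and 23.7% rose. In whole muscle, fewer cells of a type and less RNA per cell cannot be told apart. Of 10 fast-fibre markers 2 fell in WT (Mybpc2 and Casq1) and 7 in KO muscle, or 20% and 70%, the first near the share of all genes, with medians of -0.11 and -0.78; their summed signal ranged over 11.2 to 11.8 in WT control, 11.1 to 11.6 in WT denervated, 11.7 to 11.8 in KO control and 10.8 to 11.3 in KO denervated muscle. Of 7 slow-fibre markers 1 fell in WT, and 2 fell and 1 rose in KO muscle, with summed signal of 9.34 to 9.45, 9.06 to 9.22, 8.80 to 9.57 and 8.23 to 9.28 in the same order. Of 7 endothelial markers 6 and 7 fell, and the sum went from 4.30 to 4.69 in WT control to 3.37 to 3.98 in WT denervated muscle, and from 4.64 to 4.82 to 3.64 to 3.88 in KO muscle. Macrophage markers rose for 1 of 7 genes in WT and 4 of 7 in KO muscle (sums of 4.72 to 5.40, 5.34 to 5.65, 4.49 to 5.74 and 5.51 to 6.12). Of the other lists, 3 of 3 erythrocyte and 3 of 6 Schwann cell markers fell in both genotypes, smooth muscle and pericyte markers fell for 3 and 2 of 5, 2 of 4 neutrophil markers fell in KO and 1 of 7 fibroblast markers in WT muscle, satellite cell markers rose for 2 of 4 in both, and the 5 adipocyte markers gave changes between -0.31 and 0.27. Of the defining markers Csf3r and Lep were in no group well above background on all 3 arrays.

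Values within slides were of like size. On the slide that held both WT conditions, WT denervated replicate 1 against WT control replicate 1, the median of the 39 was -0.89. On the slides that held both KO conditions it was -1.11 and -1.25. For KO against WT in denervated muscle the medians within the 2 slides that held both were -0.24 and -0.08. Signs of called genes within slides are left out, since groups of arrays that do not overlap fix them beforehand. With slide as a block 23 genes fell in WT muscle, where Gpi1, Gys1 and Pygb lost their calls, and 26 in KO muscle, where Pfkl lost its call and Eno1 gained one (-0.85, adjusted p = 0.0437, limma). Between genotypes in denervated muscle Hk1 and Pgam2 then lost their calls (adjusted p = 0.0893 and 0.0593, limma), and Pkm was called lower in KO (-0.91, adjusted p = 0.0296, limma).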

How the data were processed

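Whole gastrocnemius RNA was measured on 12 single-colour Agilent arrays, 3 in each of 4 groups set by the labels. The deposited files hold scanner intensity values from Agilent Feature Extraction (version 10.5.1.1 per the submitters' processing notes, 10.7.3.1 per the file headers); per the file headers the processed intensity was background-subtracted and detrended, with no scaling between arrays. The authors also deposited a matrix of linear intensity values, whose normalization method is not given in the sources used here; it served as an alternative. Probe positions are those of mm8 as the files give them.

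From the processed intensity, log2 was taken and the 75th percentile of each array subtracted. Probes well above background on all 3 arrays of at least 1 group were kept (22535 of 41174), names were updated through RefSeq accessions, and each gene was read by its brightest probe (15234 genes). Group means were fitted with limma 3.58.1 in R 4.3.3 over all 12 arrays (lmFit and eBayes, 8 residual degrees of freedom), p-values were adjusted by Benjamini-Hochberg over all genes, and calls use 0.05. Isoform pairs were tested by exact permutation within genotype. The fit and the pair test were tested on simulated data. Values and figures were tabulated with Python 3.11.15, pandas 2.3.3, numpy 2.4.6 and matplotlib 3.10.9.

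The members, the isoform classes and the further lists were chosen with earlier results of these data known. By rule, array values are printed for the member of each class with the smallest adjusted p and for members that passed between genotypes (Fbp2, Ldhb, Gpd1, Pgam2, Hk1), and up to 4 genes of each further list with the smallest adjusted p are named; array values of other members, and Pdk3, Adpgk, Foxo1 and the markers named, were chosen after their values were seen. A few genes of the further lists are counted but not reported here by name. Alternatives were other normalizations and background corrections, the filter, the mean of probes, slide and replicate blocks, and leaving out each array; a pair test exchanging WT arrays within a number and the second Ldha probe were added after seeing the data. Same-numbered WT samples deviated together (correlations of 0.303, 0.108 and 0.233, every one over 0.1), KO samples less so (0.0900, 0.0137 and 0.175), and 2 of these pairs share a slide. Whether equal numbers mean the same animal is not given in the labels. The fit and the pair test above did not use a pairing by number, which entered as a block in the alternatives. The p-values measure the spread between 3 samples per group, which limits the precision.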

Additional observations from a re-analysis of the deposited data

How the results depend on the processing

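Over 22 alternatives, 19 of the 26 calls in WT and 21 of the 28 in KO muscle were kept under every one; the number of genes that fell ranged from 23 to 27 in WT and 22 to 28 in KO muscle, with medians from -1.19 to -0.81 and from -1.45 to -0.83. In denervated muscle neither call between genotypes was kept under every alternative: the count lower in KO ranged from 0 to 3 and the count higher from 0 to 1. Under quantile normalization 1 gene rose in WT, the KO median was -0.86 and 0 genes were lower in KO denervated muscle; on the authors' matrix values these were 1, -0.83 and 0. With the array median subtracted 3 were lower and 0 higher in KO denervated muscle; with normexp, 0 rose in KO muscle and 0 were lower or higher; with no filter, 0 and 0. With probes above background on all arrays, the KO median was -1.45 and 2 genes were lower in KO denervated muscle. With the mean of probes 0 genes rose in KO muscle, 0 were higher in KO denervated muscle, and Pfkfb2 turned to -0.15 in KO muscle. With slide as a block 0 were higher in KO denervated muscle, and the 1 lower was Pkm in place of Pgam2. In WT muscle that block ended the calls of Gpi1, Gys1 and Pygb (adjusted p = 0.0574, 0.0750 and 0.0760, limma), and in KO muscle it ended that of Pfkl and gave one to Eno1. With the replicate block within genotype 1 gene, Gbe1, rose in WT muscle, and Pfkl lost its call in KO muscle (adjusted p = 0.0571, limma); this fit could not be made for KO against WT. With the replicate block over all arrays 1 gene rose in WT, 0 were higher in KO denervated muscle (Hk1, adjusted p = 0.0702, limma), Pfkl lost its call, and Hk2 in WT and Aldoa in KO muscle gained one (adjusted p = 0.0336 and 0.0465, limma); the replicate blocks changed no other call. With the replicate block in the pair test (WT arrays exchanged within their number) the 7 pairs kept their calls (exact permutation test, adjusted p = 0.0161). Full separation of their arrays fixed that result in advance. On its second probe Ldha changed by 0.00889 against Ldhb (exact permutation test, adjusted p = 0.94), so that call was lost; both alternatives were chosen after seeing the data. Leaving out single arrays gave 0 to 1 risen in WT muscle, and 0 to 2 lower and 0 to 1 higher in KO denervated muscle. The cause of these changes was not tested. Aldoc and Pgm2 lay near background, which limits their precision.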
